A study of Sus scrofa with 96 samples.

Results

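The 80 genes described here were the liver genes whose levels differed most between boars, out of 25322 genes counted. They were found by a rule on CPM, the reads on a gene for each 1000000 reads on all genes of that library. Over 46 livers the standard deviation (SD) of log2(CPM + 0.5) had to be 1 or more, the median CPM 10 or more, and at least 1 read had to be counted in 40 or more livers. The median over 34 testes had to be 1 CPM or more. Genes in 2 ranges of identifier numbers that the rule names, and genes whose liver and testis levels had a Pearson r of 0.7 or more over the 34 pigs with both libraries, were left out. Of the genes counted, 5533 met the level rule in liver, 133 of these also had an SD of 1 or more, 86 of those also met the testis level, 85 lay outside the left-out identifiers and 80 were left after the limit on r. Of the 80 genes, 46 were paired with a symbol and 34 are known here by identifier only. The SD, the levels and the liver to testis r chose the genes and are given as descriptions without a test.

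The animals were commercial Danish Landrace boars, 48 in all, in 3 groups of 16 whose genetic merit for boar taint (BT), an off-odour of pork from entire males, was high, medium or low. Merit was taken from breeding values of each boar's sire, so boars of 1 group may share sires, and no boar was treated. Liver and testis were sampled after slaughter, the testis later than the liver. Stranded mRNA libraries, all of batch 1, were made from 46 livers: 15 in the high BT group, 16 in the medium and 15 in the low. A liver each from the high and the low group had a total RNA library.

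The liver makes and burns fat, stores glycogen, disposes of nitrogen, secretes plasma proteins and clears foreign compounds, among them the skatole that contributes to boar taint. Many genes of these pathways are known to follow feeding, time of day and inflammation. A liver biopsy also holds cells other than hepatocytes, namely macrophages, endothelium, stellate cells and blood. In tissue of this kind, fewer cells of a type and less RNA per cell cannot be told apart.

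The 46 stranded mRNA livers held from 3728775 to 12156143 reads on genes, and the 2 total RNA livers 3864873 and 4046334. Of the hepatocyte markers, 4 of 5 were found and none was at 0: ALB, for albumin, had a median of 132168 CPM over the 46 livers. Of the 34 stranded mRNA testes, 1 of medium BT in batch 1 stood apart: its median r with the other testes was 0.772, against 0.980 for the next lowest. Counting error accounted for a median of 0.482% of a gene's variance over the livers and for at most 3.45%.

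The median SD of the 80 genes was 1.13 on the log2 scale, compared with 0.43 for the 5533 genes that met the level rule in liver. The ratio of the 90th to the 10th percentile of CPM had a median of 7.02 and ranged from 4.32 to 102. The genes of largest SD were CD207 at 2.27, ENSSSCG00000002824 at 1.89 and ENSSSCG00000005171 at 1.73. Those closest to the limit were ITIH2 at 1.002 and FMO1 at 1.003 inside it, and PPIF at 0.995 and ABCD3 at 0.991 outside it. On the other limits, TFRC at 10.1 CPM was just inside the liver median and ABHD6 at 9.66 CPM just outside. In testis ENSSSCG00000028484 at 1.03 CPM was just inside and RAB30 at 0.943 CPM just outside, and for r ENSSSCG00000003318 at 0.68 was just inside and ENSSSCG00000012427 at 0.71 just outside.

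The extremes were spread over many livers, but unevenly. Of the 46 livers, 39 were the highest or the lowest for at least 1 gene, and 53 genes kept an SD of 1 or more whichever single liver was left out. The liver of pig 3102 (low BT) was extreme for 16 genes, that of pig 8332 (high BT) for 11 and that of pig 8117 (medium BT) for 11, together 38 of the 160 extremes. Skewness lay within 0.5 of zero for 51 genes. The strongest tails to the low side were those of ACAA2 (skewness -1.75) and ENSSSCG00000021847 (-1.32), and the strongest to the high side those of ENSSSCG00000027982 (1.09) and THBS1 (1.02).

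**Figure D1:**
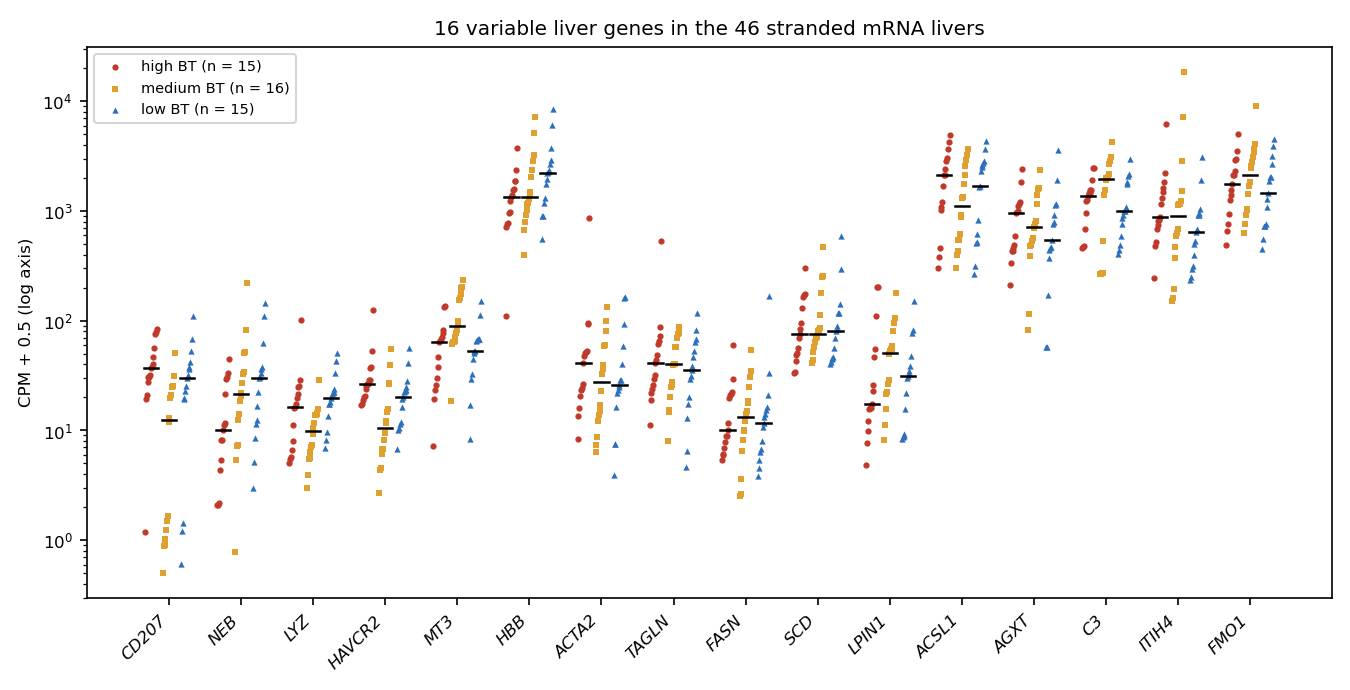
CPM + 0.5 on a log axis for 16 of the 80 genes in each of the 46 stranded mRNA livers; circles are high BT, squares medium BT and triangles low BT, and short lines mark group medians. The merit groups overlapped for each gene, CD207 left 11 livers at 1.15 CPM or less, and single livers stood high for ACTA2, TAGLN, FASN and ITIH4.

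ACSL1 (ENSSSCG00000015784), which activates long-chain fatty acids to acyl-CoA, ranged from 269 to 4922 CPM (median 1667) over the 46 livers. In high BT it lay at 303 to 4922 CPM (median 2113), in medium BT at 304 to 3709 CPM (median 1113) and in low BT at 269 to 4337 CPM (median 1687). Each group thus held livers at both ends of the range. PEX11A, a factor of peroxisome division, ranged from 5.59 to 85.5 CPM (median 26.0) and followed ACSL1 over the livers (r 0.81).

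ACSL1 and PEX11A belonged to a set of 13 genes that rose and fell together, with a median r of 0.68 over its 78 pairs, all of them positive. The other members with symbols were RETSAT, which saturates retinol, DHRS4, a carbonyl and retinal reductase, SGMS1, a sphingomyelin synthase, ENTPD5, a nucleoside diphosphatase of the endoplasmic reticulum, PPL, the cytoskeletal linker periplakin, and MMD. RETSAT ranged from 5.84 to 213 CPM (median 42.3) and ENTPD5 from 3.08 to 89.5 CPM (median 17.6), and their r was 0.88. Within merit groups the median r of the 13 genes was 0.76 in high BT, 0.59 in medium BT and 0.73 in low BT, so the likeness was present inside each group. Each of the 13 genes had a positive r with the mean level of 2 endothelial markers, from 0.23 for PEX11A to 0.57 for MMD, with ACSL1 at 0.37. Their r was also positive, but lower, with the cholangiocyte marker EPCAM (0.09 to 0.32) and with the macrophage markers (at most 0.34, for SGMS1). The part of these cells was not tested. Over the 33 testes without the one that stood apart the median r among the 13 genes was -0.02.

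Enzymes that make fat varied in another set. FASN (ENSSSCG00000029944), the fatty acid synthase, ranged from 2.05 to 168 CPM (median 11.2) and SCD (ENSSSCG00000010554), the desaturase that makes oleate, from 32.8 to 586 CPM (median 77.7). The highest liver for both was that of pig 3102, with 168 CPM of FASN and 586 CPM of SCD, while the second highest FASN value was 59.1 CPM. Without that liver the SD of FASN was 1.07 and that of SCD 0.93, the latter below the limit. FASN and SCD had an r of 0.70 in liver (rho 0.57; 0.61 without the 2 livers farthest from the FASN median) and of 0.60 over 33 testes.

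FASN and SCD stood with GATM, the first enzyme of creatine synthesis, CRADD, an adaptor of caspase activation, and 3 genes without symbols in a set of 7 (median r 0.58; 0.73 in high, 0.60 in medium and 0.60 in low BT). Each of the 7 had a positive r with the mean level of 4 hepatocyte markers, from 0.32 for SCD over 0.53 for FASN to 0.75 for ENSSSCG00000010008, and the part of these markers was not tested. GATM ranged from 131 to 3022 CPM (median 791) and CRADD from 3.35 to 189 CPM (median 24.1). Of the 9 genes of the lipogenesis list, 6 were found and 3 met the liver level rule, of which FASN and SCD were among the 80 and ACACA was not. None of the 6 was called between merit groups (limma, adjusted p of 0.05, high or medium against low).

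LPIN1 (ENSSSCG00000008624), a phosphatidate phosphatase of triglyceride synthesis that also acts as a co-regulator in the nucleus, ranged from 4.33 to 204 CPM (median 28.8). It lay at 4.33 to 204 CPM (median 16.8) in high BT, 7.75 to 179 CPM (median 50.6) in medium BT and 7.91 to 149 CPM (median 31.1) in low BT. Its highest values, 204 and 203 CPM, were both in high BT livers, as was its lowest. It was in a set of 6 with NOCT, a phosphatase with a daily rhythm, OAT and ARG2, enzymes of ornithine and arginine breakdown, BMP6, a signal for hepcidin, and ENSSSCG00000009871 (median r 0.63). Within groups the median r of this set was 0.82 in high BT and 0.71 in low BT, but 0.32 in medium BT.

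LPIN1 ran opposite to ACSL1, with an r of -0.81 (rho -0.80; -0.78 without 2 livers). Within groups this r was -0.94 in high BT, -0.64 in medium BT and -0.80 in low BT. The lowest r of all 3160 pairs, -0.83, was that of TP53INP2, a factor of autophagy, and GPAM, the first acyltransferase of triglyceride synthesis (rho -0.81; -0.79 without 2 livers). TP53INP2 ranged from 4.27 to 89.1 CPM (median 36.4) and GPAM from 12.8 to 261 CPM (median 42.4), and pig 3102 had the lowest TP53INP2 and the highest GPAM. TP53INP2 grouped with ATF3, a transcription factor induced by stress (r 0.66), and with ENSSSCG00000022427.

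**Figure D2:**
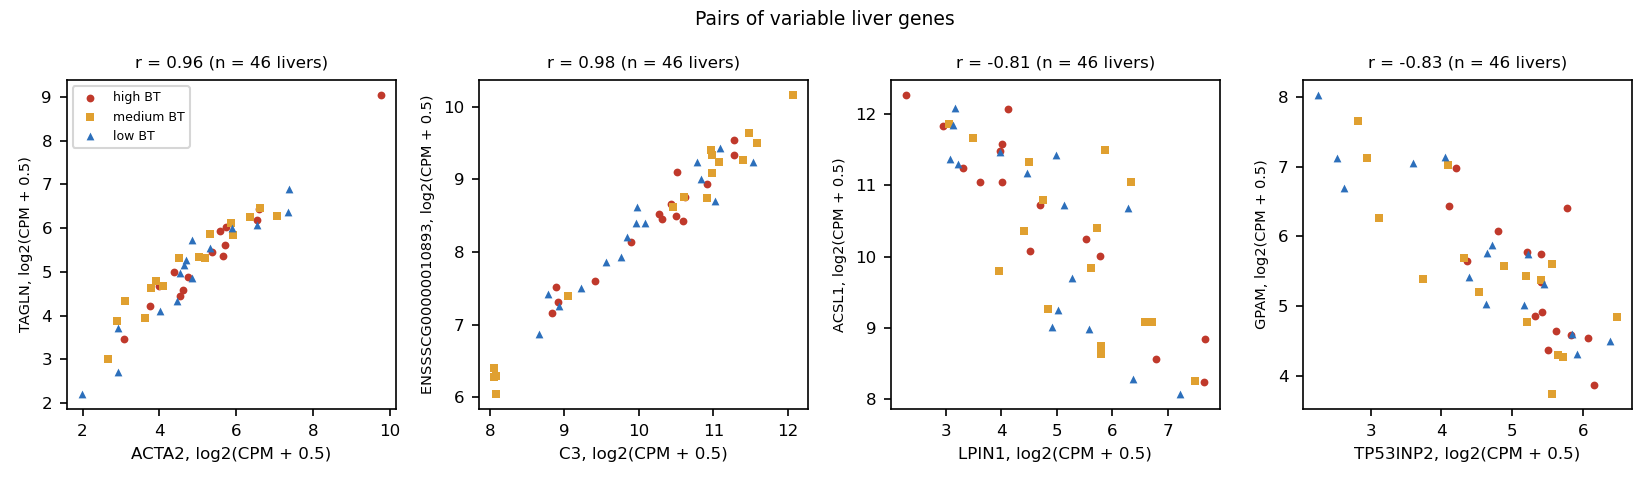
log2(CPM + 0.5) of pairs of genes, 1 point for each of the 46 stranded mRNA livers, with circles for high BT, squares for medium BT and triangles for low BT. ACTA2 with TAGLN and C3 with ENSSSCG00000010893 rose together (r 0.96 and 0.98), LPIN1 fell as ACSL1 rose and TP53INP2 fell as GPAM rose (r -0.81 and -0.83), and the merit groups were mixed along each line.

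AGXT, the aminotransferase that detoxifies glyoxylate in peroxisomes, ranged from 56.7 to 3613 CPM (median 708). G0S2, an inhibitor of the fat lipase ATGL, ranged from 5.63 to 261 CPM (median 89.6), and PMM1, a phosphomannomutase, from 6.00 to 203 CPM (median 109.9). With 3 genes without symbols they formed a set of 6 (median r 0.74). The mean level of this set, with each gene scaled to its own mean and SD, ran opposite to that of the FASN set (r -0.80) and along with that of the ACSL1 set (r 0.65). The r of -0.80 was not computed without single livers. Without 2 livers the r of AGXT and SCD went from -0.61 to -0.47 and that of G0S2 and FASN from -0.50 to -0.31. Other pairs between these sets changed less, such as ENSSSCG00000023044 and ENSSSCG00000000576, from -0.77 to -0.75. The livers of pigs 3102 and 8117 were high for FASN and SCD and low for AGXT, G0S2 and PMM1. The ACSL1 and FASN sets had an r of -0.54. Each of the 6 genes of the AGXT set had a negative r with the hepatocyte markers, with AGXT lowest at -0.51, and their part in the opposite course was not tested.

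Other enzymes of the mitochondria and of sulphur metabolism stood in a small set or in none. ACAA2, the thiolase of the last step of beta-oxidation, ranged from 25.02 to 1466 CPM (median 606), and its low tail was made by livers at 25.02 and 49.3 CPM. ACAA2 and ACSL1, both of fatty acid breakdown, had an r of -0.00486 over the livers. Within groups this r differed in sign, at -0.50 in high BT, 0.33 in medium BT and -0.15 in low BT. ACAA2 went instead with SULT1A3, a phenol sulphotransferase (r 0.74, but rho 0.46). ACAA2, SULT1A3 and ENSSSCG00000006719 formed a set of 3 (median r 0.66). CTH, the last enzyme from methionine to cysteine, ranged from 69.8 to 1903 CPM (median 315) and joined no set.

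Secreted plasma proteins and their companions made up the most tightly linked set. C3 (ENSSSCG00000013551), the central complement protein, ranged from 265 to 4283 CPM (median 1391). It lay at 455 to 2481 CPM (median 1382) in high BT, 265 to 4283 CPM (median 1964) in medium BT and 403 to 2954 CPM (median 1000.2) in low BT. The highest r of all pairs was that of C3 with ENSSSCG00000010893, 0.98 (rho 0.96; 0.97 without 2 livers), and that of C3 with ITIH2, a heavy chain of the inter-alpha-trypsin inhibitor, was 0.96.

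The C3 set of 6 also held ALDH1A1, a retinaldehyde dehydrogenase, FADS2, a desaturase of polyunsaturated fatty acids, and AQP9, the glycerol channel of hepatocytes, with a median r of 0.83. FADS2 had an r of 0.61 with FASN and 0.64 with SCD, close to its 0.57 with C3. Over the 33 testes the median r of the C3 set was 0.42 and that of C3 with ENSSSCG00000010893 was 0.45. ENSSSCG00000024853 ran against the set, with an r of -0.78 with ITIH2 and -0.76 with C3. The share of reads assigned to genes, a measure of library quality, moved with both: its r was -0.66 with ENSSSCG00000024853 and 0.52 with ITIH2, and its part in their spread was not tested. An r with that share of 0.5 or more in size was found for 3 of the 80 genes, or 3.75%, against 3.27% of the 5533 genes, and with the reads on genes for 0, against 3.63%. Each of the 6 genes of the C3 set also had a positive r with the mean level of 4 hepatocyte markers. It ran from 0.42 for ENSSSCG00000010893 to 0.59 for ITIH2, and that of ENSSSCG00000024853 was -0.55. The part of these markers was not tested.

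ITIH4 (ENSSSCG00000011453), a major acute phase protein of pigs, had the widest range in absolute terms among the secreted proteins with symbols, from 150.1 to 18462 CPM (median 819). It lay at 245 to 6273 CPM (median 881) in high BT, 150.1 to 18462 CPM (median 906) in medium BT and 235 to 3083 CPM (median 646) in low BT. The highest 2 livers, pigs 8325 and 8338 of medium BT, had 18462 and 7156 CPM, and the same 2 pigs were the highest for C3. ITIH4 formed a set of 3 with ENSSSCG00000002486 and ENSSSCG00000030371 (median r 0.76), which had the highest median CPM of the 80 genes, 1934 and 4320.2 CPM, on a scale not corrected for gene length. Of 15 acute phase genes 7 were found and 6 met the liver level rule. Their median SD was 0.996, and ITIH4 was the only one that met the whole rule. CRP and LBP also had an SD above 1 but lay under 1 CPM in the median testis.

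Genes of the cytoskeleton and the matrix made up a set of 4. ACTA2 (ENSSSCG00000010447), the smooth muscle actin that also marks activated stellate cells, ranged from 3.43 to 866 CPM (median 27.2) and TAGLN (ENSSSCG00000015073), the actin-binding protein transgelin, from 4.11 to 528 CPM (median 38.6). In high BT ACTA2 lay at 7.89 to 866 CPM (median 40.6), in medium BT at 5.83 to 132 CPM (median 27.1) and in low BT at 3.43 to 165 CPM (median 25.4). ACTA2 and TAGLN had an r of 0.96 (rho 0.96; 0.94 without 2 livers), the second highest of all pairs, and of 0.85 over the 33 testes.

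CCN2, a matrix protein induced by growth factor signals, and THBS1, the matrix glycoprotein thrombospondin, completed the set (median r 0.68; 0.81 in high, 0.48 in medium and 0.64 in low BT). With the mean of 2 stellate and fibroblast markers the r was 0.29 for ACTA2, 0.41 for TAGLN, 0.59 for THBS1 and 0.60 for CCN2. With that of 2 endothelial markers it was 0.56, 0.53, 0.58 and 0.46 in the same order. With the neutrophil marker S100A8 it was 0.31, 0.27, 0.61 and 0.49. The part of these cells was not tested. The liver of pig 8332 was the highest for each of the 4 genes, with 866 CPM of ACTA2, 528 of TAGLN, 497 of THBS1 and 431 of CCN2. The second highest THBS1 value was 63.3 CPM. Without that liver the SD was 1.32 for ACTA2 and 1.06 for TAGLN but 0.997 for THBS1 and 0.97 for CCN2, the last 2 below the limit, and the median r of the set was 0.55.

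The same liver stood high for markers of cells other than hepatocytes. Its summed level was the highest of the 46 for 3 macrophage markers, at 1524 CPM against a median of 545, for 2 endothelial markers, at 327 against 81.8, and for 2 T cell markers, at 84.1 against 21.5. It was the second highest for COL3A1 and DCN of the stellate and fibroblast markers, at 378 against 161. Its 4 hepatocyte markers summed to 69556 CPM, the 44th of 46, against a median of 158247. Its library was unusual too, with 45.2% of reads assigned to genes, against a median of 60.4% over the 46. The 10 most counted genes took 20.4% of its reads, the lowest share of the 46. The part of these cells and of these library measures in its high values was not tested.

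Genes of immune cells formed no set. CD207 (ENSSSCG00000008319), the lectin langerin of dendritic cells, had the largest spread and the only count of 0, in 1 medium BT liver. It lay at 0.687 to 84.3 CPM (median 36.5) in high BT, 0 to 50.8 CPM (median 12.0) in medium BT and 0.109 to 111 CPM (median 29.3) in low BT. Its levels fell into 2 ranges: 11 livers had 1.15 CPM or less, 35 had 11.5 CPM or more, and none lay between. The lower range held 1 high BT, 7 medium BT and 3 low BT livers.

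HAVCR2 (ENSSSCG00000028875), an inhibitory receptor of T cells and macrophages, ranged from 2.18 to 125 CPM (median 19.5), with the highest value in the liver of pig 8332, and LYZ (ENSSSCG00000000492), the lysozyme of phagocytes, from 2.47 to 102 CPM (median 13.7), with the highest value in the same liver. CD207 and HAVCR2 had an r of 0.45, CD207 and LYZ of 0.48 and HAVCR2 and LYZ of 0.51. HAVCR2 had an r of 0.71 with the mean log2 level of 2 endothelial markers and 0.62 with that of 3 macrophage markers, and LYZ of 0.62 with the neutrophil marker S100A8. These were among the strongest of all r between the 80 genes and the marker lists, which is why they are named.

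HBB (ENSSSCG00000014725), the beta chain of haemoglobin, ranged from 111 to 8437 CPM (median 1457) and had an r of 0.78 with ALAS2, the enzyme of haem synthesis in red cell precursors. TFRC, the transferrin receptor of iron uptake, ranged from 0.965 to 59.9 CPM (median 10.1) and had an r of 0.07 with HBB. TFRC stood in a set of 4 with RER1, a retrieval receptor of the early secretory pathway, ENSSSCG00000028484 and ENSSSCG00000021556 (median r 0.65). The share of reads taken by the 10 most counted genes of a library moved with this set, with an r of -0.72 for its mean level, and its part was not tested. NEB, the giant actin filament protein nebulin of muscle, ranged from 0.281 to 222 CPM (median 19.0).

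Genes of the clearance of foreign compounds included FMO1 and GSTA4. FMO1, a flavin monooxygenase, ranged from 451 to 9026 CPM (median 1796) and GSTA4, a glutathione transferase, from 9.26 to 152 CPM (median 20.4), and their r was 0.61. With ENSSSCG00000010488 they formed a set of 3, whose mean level had an r of 0.52 with the share of reads assigned to genes. Of 12 listed genes of xenobiotic metabolism 6 were found, with a median SD of 0.98, and FMO1 was the only one of the 80. CYP2A19 and CYP1A1, cytochromes of this list, had larger SDs than FMO1, 2.17 and 1.52, but lay under 1 CPM in the median testis and so fell outside the rule. MT3 (ENSSSCG00000024305), a metallothionein that binds zinc and copper, ranged from 6.66 to 234 CPM (median 65.9). SULT1A3, GSTA4, DHRS4, MT3, HBB and ACTA2 belong to families with similar copies, among which reads may have been divided or lost, so their levels are less certain.

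The other lists held 1 of the 80 genes. Of 8 immediate early genes found, ATF3 alone was one, and its level ranged from 1.51 to 97.7 CPM (median 22.8). None came from the 8 cholesterol synthesis genes found (median SD 0.73), the 6 circadian genes (0.58), the 7 fasting genes (0.74), the 5 interferon genes (0.78), the 2 bile acid synthesis genes or the 1 MHC gene, with medians taken over those at the liver level. CYP7A1, which starts bile acid synthesis, had an SD of 2.22 but was listed at 0 in the median testis and so fell outside the rule. The limits on level likewise left out IGFBP1 and FGF21 of the fasting list (SD 1.21 and 1.15), MX2 of the interferon list (1.052) and IER3 of the immediate early list (1.09), so the counts do not show that these lists varied little.

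Over all 3160 pairs of the 80 genes the median size of r was 0.22, against 0.26 for the pairs of the 5533 genes that met the level rule in liver. Of the pairs, 85 had an r of 0.7 or more and 24 of -0.7 or less, together 3.45% of the pairs, compared with 2.83% among the 5533 genes. Grouping by average linkage on 1 - r at a distance of 0.5, a height chosen after the values were seen, gave 11 sets of 3 to 13 genes that held 58 of the 80, and 22 stood outside them. Of the 34 genes without symbols, 20 were in a set and 14 outside, and their SD ran from 1.00 to 1.89 with a median of 1.15. The first 4 principal components carried 22.4, 15.4, 12.0 and 9.23% of the variance. All r are given without p-values, since pairs and sets were chosen by their r, and other pairs named here were chosen for their genes or after their values were seen.

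**Figure D3:**
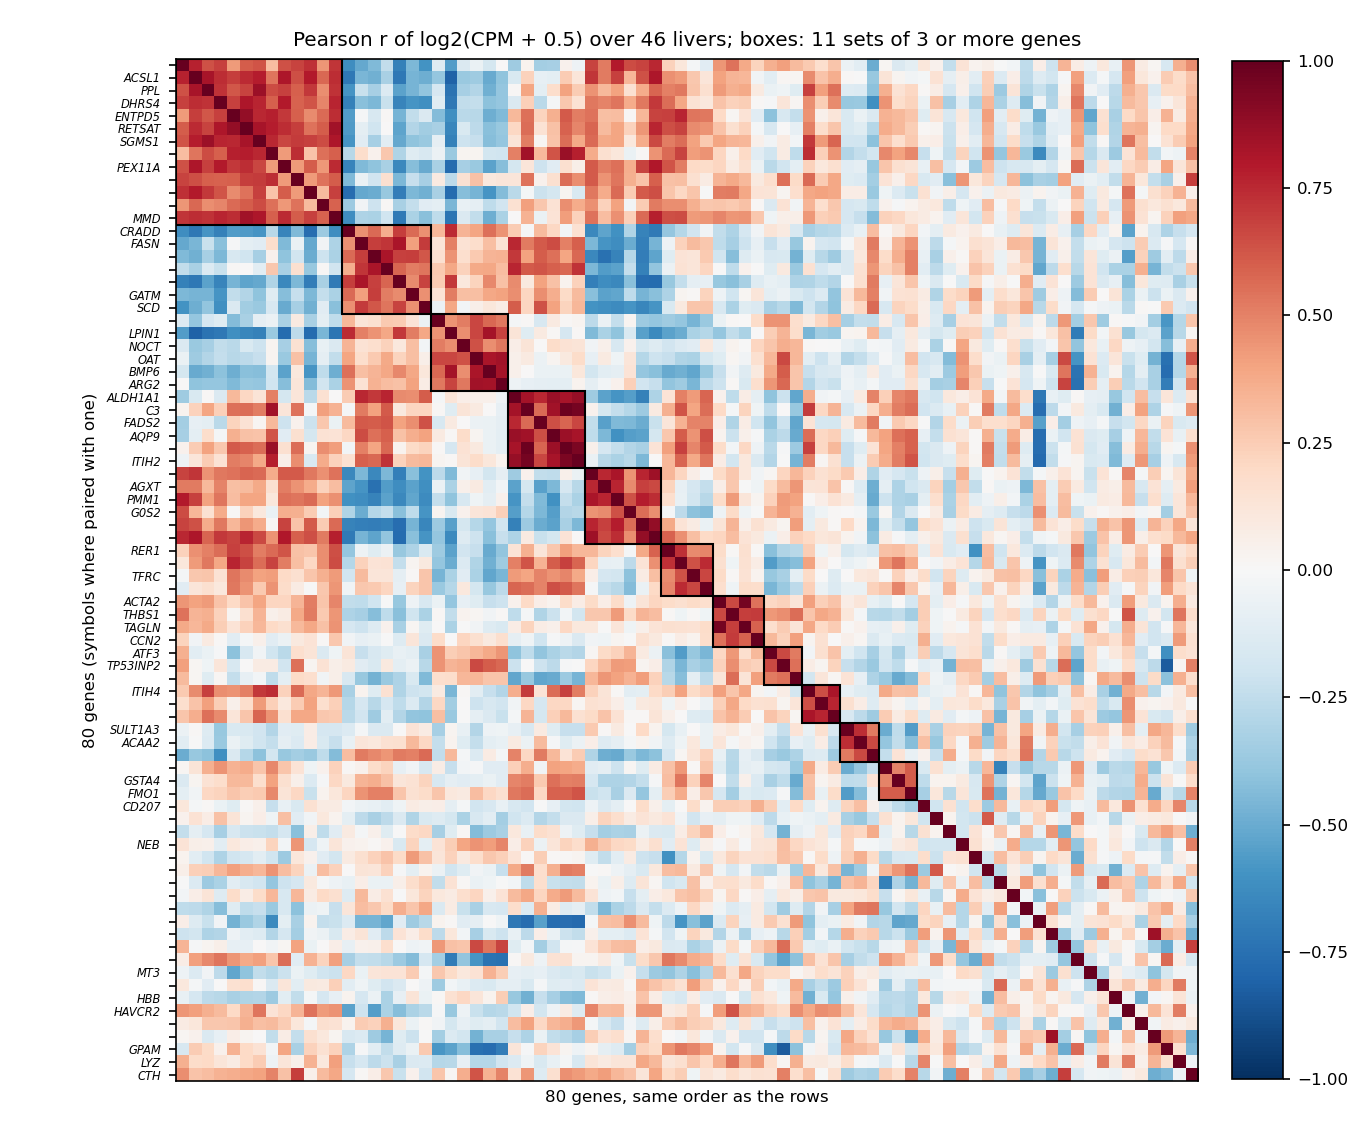
Pearson r of log2(CPM + 0.5) over the 46 stranded mRNA livers for each pair of the 80 genes, from blue (-1) to red (1), with symbols at the rows of the 46 genes that have one, and black boxes around 11 sets of 3 to 13 genes. The largest box is the ACSL1 set of 13, the block beside it to the lower right the FASN set of 7, and the blue field where the FASN set meets the AGXT set is the opposite course of these sets, with an r of -0.80 between their means. This r was not computed without single livers.

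The spread of these genes lay mostly within the merit groups. A median of 4.91% of a gene's variance over the 46 livers fell between merit groups, compared with 7.58% for the 5533 genes, and the highest share was that of HAVCR2 at 27.0%. For each of the 80 genes the ranges of the 3 groups overlapped. How often they overlapped over all genes was not computed, so this shows nothing particular to the 80 genes. The median SD within a group was 1.07 in high BT, 1.23 in medium BT and 1.12 in low BT. For the 5533 genes it was 0.39, 0.44 and 0.40 in the same order, so medium BT was widest there too. An SD of 1 or more was met by 44 genes in high BT, 65 in medium BT and 59 in low BT, and by 27 in each of the 3 groups.

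High and low BT were contrasted to see which genes follow genetic merit. With limma on voom values in a design of all 48 livers, 0 of the 80 genes passed an adjusted p of 0.05, while 3.36% of the 12225 genes tested did, 0.131% higher and 3.23% lower in high BT. At an unadjusted p of 0.05 there were 7 of the 80, or 8.75%, against 17.2% of all genes. edgeR and DESeq2 also called 0, but with them the unadjusted counts were 16 (20.0%, against 10.3% of all genes) and 18 (22.5%, against 11.8%), so whether the 80 genes passed more or less often than others depended on the tool. With library kit as a covariate limma called 2 of the 80, or 2.50%, both lower in high BT, against 4.52% of all genes. The lowest p-values belonged to ENSSSCG00000021556 (log2 fold change -0.94, SE 0.29, adjusted p 0.0521) and ENSSSCG00000021847 (-1.78, SE 0.55, adjusted p 0.0541), named after their values were seen. ENSSSCG00000021847 lay at 2.05 to 558 CPM (median 121) in high BT and 81.4 to 925 CPM (median 482) in low BT, and the groups overlapped over most of their ranges.

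Among genes with symbols, NEB was at a log2 fold change of -1.56 in high against low BT (95% interval -2.70 to -0.43, limma adjusted p 0.120). HBB was at -0.89 (-1.58 to -0.20, limma adjusted p 0.152). None of these passed. The median standard error of a log2 fold change was 0.35 for the 80 genes, against 0.17 for all genes tested, so a change of like size was harder to detect in them.

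Medium and low BT differed for more genes. Of the 80, limma called 6, or 7.50%, with 2 higher and 4 lower in medium BT, while it called 15.6% of the 12225 genes, 0.908% higher and 14.7% lower. At an unadjusted p of 0.05 there were 19 of the 80, or 23.8%, against 30.9% of all genes. The median log2 fold change of all genes was -0.19 with plain library sizes and -0.01 with TMM scaling, and that of the 80 genes was -0.11. With TMM scaling 2 of the 80 were called, or 2.50%, both higher, against 6.00% of all genes. With the share of reads assigned to genes as a covariate, chosen after the data were seen, 0 were called of the 80 and 0 of all genes.

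LYZ had the lowest p-value. Its values ran from 2.47 to 28.6 CPM (median 9.35) in medium BT and from 6.46 to 50.8 CPM (median 19.2) in low BT, so medium BT livers reached lower while the ranges overlapped. LYZ fell with a log2 fold change of -1.01 (SE 0.29, limma adjusted p 0.0169), which was -0.83 with TMM scaling (adjusted p 0.0794). ENSSSCG00000027982 also fell, lying at 6.30 to 39.3 CPM (median 16.2) in medium BT and 10.7 to 220.2 CPM (median 27.0) in low BT (-1.09, SE 0.34, limma adjusted p 0.0227).

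In the same contrast, where 14.7% of all genes were called lower, 3 of the cell type markers were too: C1QA, 1 of 3 macrophage markers found, LYVE1, 1 of 2 of endothelium, and S100A8, the 1 found of neutrophils. Other markers were not called and some had the opposite sign, such as MARCO of macrophages at a log2 fold change of 0.36 and DCN of fibroblasts at 0.50. The summed macrophage markers were at 348 to 1069 CPM (median 459) in medium BT and 403 to 1091 CPM (median 553) in low BT. S100A8 was at 0.689 to 21.7 CPM (median 3.57) in medium BT and 1.38 to 35.0 CPM (median 9.47) in low BT. No marker of hepatocytes or of stellate cells was called. The part of these cells in the change of LYZ was not tested.

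The other 2 genes called lower were ENSSSCG00000023489 (-1.03, SE 0.33, limma adjusted p 0.0301) and ENSSSCG00000002471 (-1.08, SE 0.36, limma adjusted p 0.0355), which fall outside the rule for naming and are given to complete the count. ENSSSCG00000023489 had an r of 0.68 with the mean level of 2 T cell markers, which summed to 8.53 to 34.3 CPM (median 19.5) in medium BT and 9.97 to 65.2 CPM (median 29.2) in low BT, and their part was not tested. Of the other lists, with the same 14.7% of all genes called lower, 3 of 5 interferon genes, 2 of 6 circadian genes and the 1 MHC gene were called lower and none of the acute phase, immediate early, lipogenesis, cholesterol, bile acid, fasting or xenobiotic genes. With TMM scaling the genes called lower fell from 1793 to 344 over all genes.

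The 2 genes called higher in medium BT were ENSSSCG00000002824 and MT3. ENSSSCG00000002824 was at 7.44 to 684 CPM (median 155) in medium BT and 5.94 to 197 CPM (median 46.6) in low BT, a log2 fold change of 1.77 (SE 0.61, limma adjusted p 0.0390). MT3 was at 18.1 to 234 CPM (median 88.8) in medium BT and 7.94 to 152 CPM (median 53.0) in low BT (1.01, SE 0.35, limma adjusted p 0.0415). Both rose against the median of all genes, and the ranges of the groups overlapped for both. Over the livers their r was -0.07, while ENSSSCG00000002824 and ENSSSCG00000002826, whose identifiers lie close, had an r of 0.61.

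Of the 80 genes, 0 passed between high and medium BT (limma, adjusted p of 0.05), where 0.0982% of all genes did, 0.0818% higher and 0.0164% lower in high BT. At an unadjusted p of 0.05 there were 14, or 17.5%, against 14.8% of all genes. edgeR and DESeq2 called 0, with 20 (25%, against 15.6%) and 22 (27.5%, against 15.9%) at an unadjusted p of 0.05. The lowest p-value was that of HAVCR2, which was at 16.7 to 125 CPM (median 25.8) in high BT and 2.18 to 55.2 CPM (median 10.1) in medium BT. Its log2 fold change was 1.22 (95% interval 0.61 to 1.83, limma adjusted p 0.0875). CD207 had the largest, 2.82 (1.25 to 4.38, limma adjusted p 0.101), and neither passed. The 3 liver contrasts share groups and are not independent of each other.

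**Figure D4:**
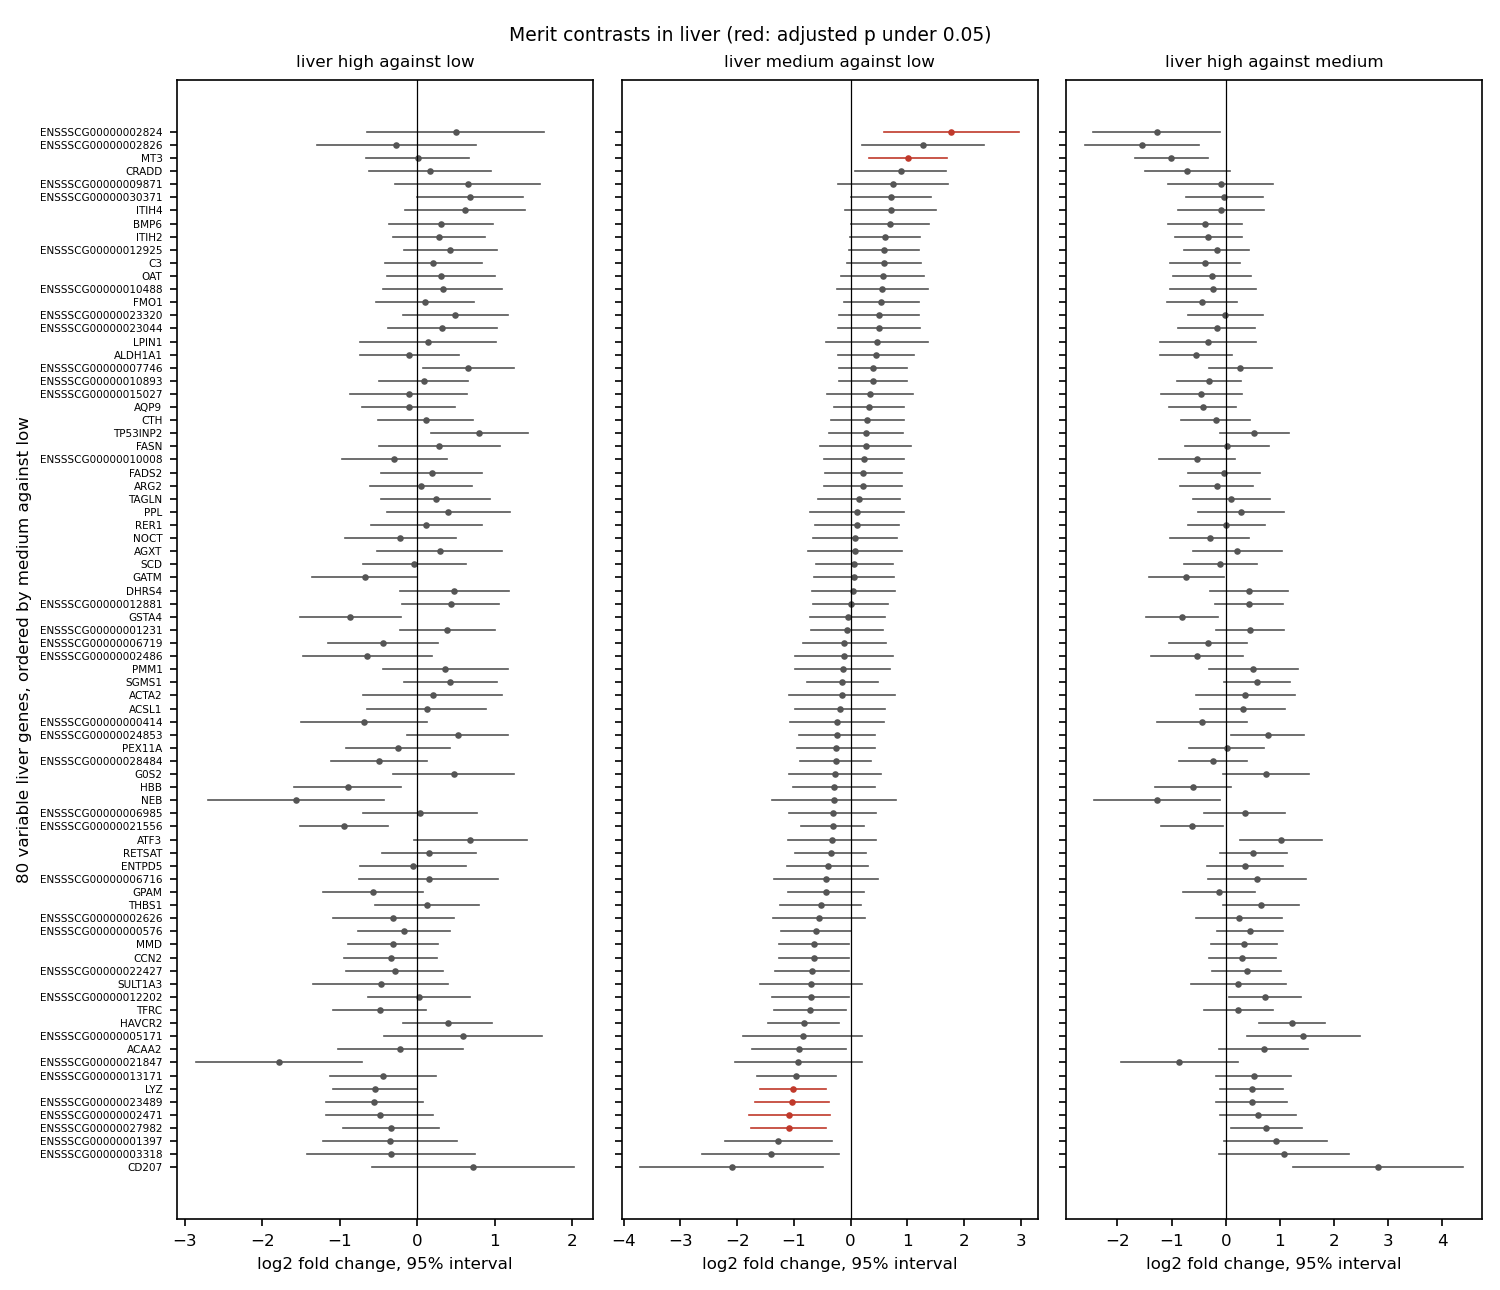
log2 fold changes of the 80 genes with 95% intervals in the 3 liver contrasts of genetic merit, each on its own axis and in the order of medium against low BT, with genes of adjusted p under 0.05 in red. The 6 red genes are all in medium against low BT, 2 above and 4 below zero, and most intervals in the other contrasts cross zero.

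In testis the same genes were measured in 34 stranded mRNA libraries, namely 14 high BT (batch 2), 13 medium BT (7 in batch 1, 6 in batch 2) and 7 low BT libraries (batch 1). Their level was higher in liver for 62 genes and higher in testis for 18. LPIN1 had a median of 302 CPM in testis, DHRS4 of 1971, ENTPD5 of 261 and MMD of 108, each above its liver median. AGXT and MT3 lay low in testis, at 2.41 and 2.98 CPM.

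The rule chose genes by their spread in liver, so a smaller spread in testis follows largely from that choice. The SD over the 34 testes was below that in liver for 71 of the 80 genes, and over the 33 testes without the one that stood apart for 76, against 84.8% of the 5182 genes at the rule's levels in both tissues. Within testis the median SD of the 80 genes over the 34 testes was 0.67, against 0.36 for the 5182 genes. The 5182 genes met the same minimum levels but were not matched to the 80 in level. Counting error, which weighs more at low levels, was not computed in testis. The testis that stood apart was the highest of the 34 for 27 of the genes, among them ACTA2 at 4339 CPM (next 159.9), HBB at 21625 CPM (next 436) and C3 at 937 CPM (next 76.0). Over the 33 others the median SD was 0.49, against 0.27, and 5 of the 80 genes had an SD of 1 or more, where 15 had one over all 34.

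The SDs in both tissues are given for a few genes as a description. LPIN1 had an SD of 1.39 in liver and 0.21 in the 33 testes, SGMS1 of 1.07 and 0.18, and ENSSSCG00000002824 of 1.89 and 0.20. HBB, at 1.12 and 1.34, was 1 of 4 genes with more spread in those testes than in liver. The liver to testis r, limited by the rule, had a median of 0.13 over 34 pigs, and 61 genes lay within 0.3 of zero. Without the pig whose testis stood apart the median was 0.15, and 52 genes lay within 0.3 of zero. The highest with a symbol over 34 pigs were RER1 at 0.67 and NEB at 0.59, which were 0.65 and 0.68 without that pig.

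**Figure D5:**
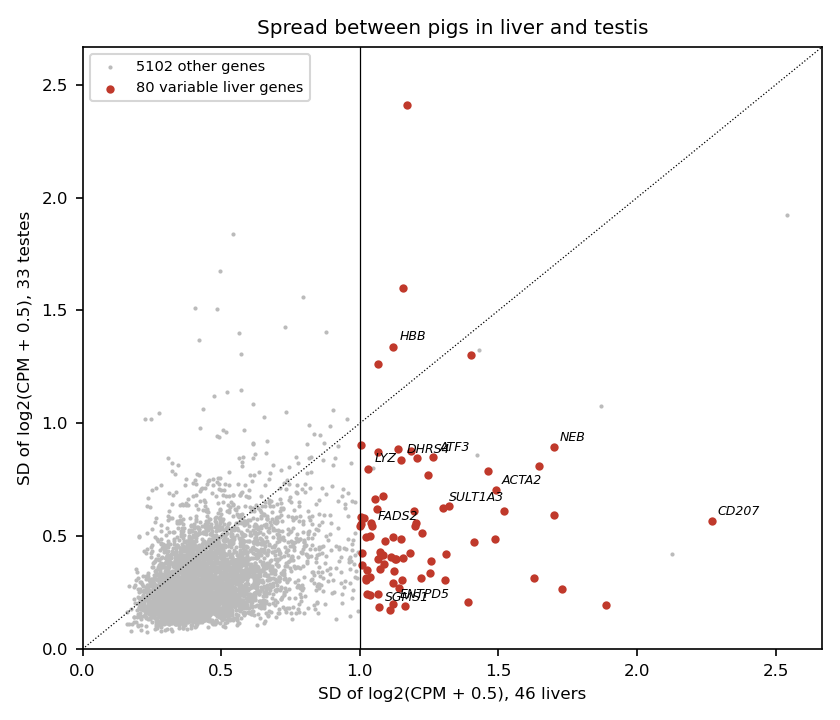
SD of log2(CPM + 0.5) over the 46 livers (x) and over the 33 testes without the one that stood apart (y), with the 80 genes in red, the other genes that met the rule's levels in both tissues in grey, a vertical line at the rule's SD of 1 and a dotted line where both are equal. Most red points lie well under the dotted line, and the grey points right of the vertical line are genes that another part of the rule left out.

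Merit groups were compared in testis only within a batch. Between medium and low BT in batch 1, limma called 0 of the 80 genes and 0% of the 15411 genes tested. At an unadjusted p of 0.05 there were 19, or 23.8%, against 14.6% of all genes. Without the testis that stood apart limma again called 0 of the 80, with 19 at an unadjusted p of 0.05, against 14.3% of all genes. Between high and medium BT in batch 2 it called 0 of the 80 and 0.00659% of the 15164 genes tested, with 11 at an unadjusted p of 0.05, or 13.8%, against 4.13%. edgeR and DESeq2 called 0 of the 80 in both.

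The 2 total RNA livers were not used by the rule. In that of high BT 13 of the 80 genes, or 16.3%, lay outside the range of the 46 livers, against 36.7% of the 5533 genes, and in that of low BT 12, or 15.0%, against 28.0%. The rule chose genes of wide spread over these 46 livers, so a smaller share outside their range follows largely from that choice. The median size of the difference from the median liver was larger for the 80 genes. In the high BT liver it was 1.06 on the log2 scale, against 0.73 for the 5533 genes. In the low BT liver it was 1.33, against 0.61. Neither measure was tested. C3 was above the range in both, at 11323 and 11658 CPM. FASN was at 476 CPM and SCD at 708 CPM in the low BT liver, both above the range. In the high BT liver FASN was at 76.8 CPM and SCD at 40.1 CPM, within it. Kit and animal cannot be told apart in these 2 libraries.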

How the data were processed

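RNA-Seq of 96 libraries was used as deposited. Per the labels and the study's methods, the authors trimmed reads with cutadapt 1.8.1 and Trimmomatic 0.33, mapped them with STAR to the Sscrofa10.2 genome and counted them per gene with HTSeq 0.6.0; the deposited values are raw counts. Tool versions are from the submitters' processing notes. Default HTSeq settings leave out reads that map to several places, which lowers genes with similar copies.

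CPM was each count over the library's sum on genes. Counts were tested as in the study: genes with a mean count above 5, voom with sample quality weights, plain library sizes, limma 3.58.1 in R 4.3.3, Benjamini-Hochberg over all genes tested, called under an adjusted p of 0.05, with all 48 livers in 3 groups. Boars are the replicates. TMM factors, no quality weights, edgeR 4.0.16 (quasi-likelihood), DESeq2 1.42.0, no minimum count, kit as a covariate and stranded mRNA livers only were alternatives; the share of reads assigned to genes as a covariate and leaving out single libraries were added after the data were seen. The fits were tested on simulated counts. Correlations used Python 3.11.15, numpy 2.4.6 and scipy 1.17.1.

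The files hold identifiers only. A table of newer Ensembl names paired 11804 of 25322 with symbols, 46 of the 80 among them, and these are newer names on an older annotation. All 46 are named, grouped by how their levels ran together, with gene lists for acute phase, immediate early, lipogenesis, cholesterol synthesis, bile acid synthesis, circadian, fasting, interferon, xenobiotic and MHC genes and for cell type markers. Genes without a symbol are named where they have the 3 largest SDs or levels, the 2 strongest skewnesses each way, the 2 highest or the lowest r of a pair, or the 2 lowest p each way among called genes, and otherwise after their values were seen. The genes, the lists and the sets were chosen with earlier results of these data known. No gene sequence was used here.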

Additional observations from a re-analysis of the deposited data

Results flagged for a closer look

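Testis groups of 4 to 10 libraries were searched for a library far from the others in the level of the 80 genes. The median size of the genes' difference from their testis medians was 2.16 on the log2 scale in 1 testis of medium BT in batch 1, where the other 6 lay between 0.24 and 0.35. It is the testis that stood apart in the report, where the SD, the liver to testis r and the medium against low contrast are given with and without it. Among the 9 total RNA testes of low BT, 1 library had a median log2(CPM + 0.5) over the genes of -1, the value of a gene without reads, where the others lay between 3.83 and 4.34, and its genes differed from the testis medians by a median of 5.23, where the others lay between 0.53 and 0.64. This library held 379942 reads on 940 genes and entered no comparison here. Chance flags about 1 in 20 groups in such a search.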

How the results depend on the processing

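In 41 of 48 alternatives the counts and medians stayed within the bounds set, and 7 moved. The bounds were a fixed ratio for counts and, for medians, the SD of the measure over the 80 genes. A contrast with 0 of the 80 genes called in both fits counted as within bounds, and most of the 41 were of this kind. The tally is therefore no measure of how firm the results are. Between medium and low BT in liver, 6 of the 80 genes were called, but 2 with TMM factors, 1 without quality weights, 1 with edgeR, 3 with DESeq2 and 0 with the share of assigned reads as a covariate. In the same order, 15.6, 6.00, 5.12, 1.77, 5.06 and 0% of all genes were called. Between high and low BT 0 were called, but 2 with kit as a covariate, where 4.52% of all genes were. LYZ passed in 4 of 8 alternatives (adjusted p 0.0138 to 0.465), ENSSSCG00000002824 in 5 (0.00295 to 0.431), MT3 in 3 (0.0188 to 0.449), ENSSSCG00000027982 in 3 (0.0180 to 0.466), ENSSSCG00000002471 in 4 (0.0230 to 0.509) and ENSSSCG00000023489 in 2 (0.0262 to 0.482), and each kept its direction. The cause was not tested.

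The rule found 80 genes, but 137 without the minimum of the liver median. TMM scaling gave 67, of which 59 were among the 80, a pseudocount of 1 gave 71, one of 0.1 gave 88, and leaving out the testis that stood apart gave 77. Leaving out each liver in turn gave 73 to 82, with at least 71 of the 80 among them. No paired analysis was possible because each pig number belongs to 1 merit group only. The fewest genes were found without the high BT liver of pig 8332. Boars of a group may share sires, which the fits do not model, and genes of wide spread need larger differences to pass.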

Other observations

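The widest gap between neighbouring livers, with 3 or more livers on each side, was computed for each gene after the data were seen. It was 2.86 on the log2 scale for CD207, against a median of 0.42 over the 80 genes, and 6 genes had a gap of 0.8 or more. For ITIH4 it was 1.02 and lay above 43 livers, with 3 livers at 6273 CPM or more, 1 of high BT and 2 of medium BT. For ENSSSCG00000006716 it was 0.91, with 3 medium BT livers at 29.0 CPM or less and 43 at 54.7 CPM or more.

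Pig 3102 (low BT) was beyond 2 SD of the mean for 17 of the 80 genes and pigs 8117 and 7110 (medium BT) for 13 each. Pigs 3102 and 8117 had high GATM, at 2378 and 3022 CPM, high ALDH1A1, at 1863 and 1157 CPM, and low TP53INP2, at 4.27 and 6.56 CPM.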
